A study of Mus musculus with 6 samples.

Results

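Transcripts of the insulin-like growth factor (IGF) axis were followed in E0771 cells, a mouse mammary carcinoma line, with Igfbp5 as the gene that stood out. The members were 10 genes looked for by symbol among the 28063 genes of the count table: the IGF-binding protein genes Igfbp3, Igfbp4, Igfbp5, Igfbp6 and Igfbp7, the receptor genes Igf1r, Igf2r and Insr, and the adaptor genes Irs1 and Irs2. Of these 10 genes, 8 had a row and 7 passed the filter on low counts, which kept 14675 genes. Igfbp3 and Igfbp7 matched no row and were not analysed here. The members were chosen with their counts in these same libraries known, so their levels and fold changes are given as a description and no p-value is given for any of them. Counts of members past a threshold stand beside the same share of all genes and are not read as support.

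The study compared 3 E0771 populations with 2 libraries each: 1 with a mutant of Malt1 named PD (Malt1_PD), 1 with wild-type Malt1 (Malt1_WT), and 1 with a control vector (Vector). The labels do not spell PD out. All 3 populations had the same handling, which was 12 h in the presence of activated CD8 T cells (3 effectors for each target), a wash, release by trypsin, a new seeding, and lysis 6 h after it, so no group went without T cells. MALT1 is a scaffold and protease that activates NF-kB downstream of CARD and BCL10 proteins. The labels name 1 population for each form, so an effect of the form and a property of the population cannot be told apart. They do not say whether the 2 libraries of each group stem from separate cultures, so the spread between them, and every p-value, may be technical only. In bulk RNA, fewer cells of a kind and less RNA per cell cannot be told apart.

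The libraries held between 14045390 and 19962014 counts, so that the floor of 3 counts set for a gene came to between 0.150 and 0.214 counts scaled to library size (CPM). This floor covers counting error only. Malt1 itself stood at 106 and 95.7 CPM in Malt1_PD, 67.2 and 82.1 CPM in Malt1_WT, against 23.8 and 31.3 CPM in Vector. Among epithelial markers Krt8 was counted at between 108 and 124 CPM and Epcam at between 6.16 and 8.97 CPM, while Krt18, Krt19, Krt7 and Cdh1 were at or below 0.598 CPM in every library. The fibroblast markers Col3a1, Pdgfra and Pdgfrb were counted at 85.1 CPM or more in every library, Dcn at between 6.05 and 12.5 CPM, and Lum at or below 0.281 CPM. Summed over the 7 of 10 T cell markers with a row, counts came to 5 and 9 in Malt1_PD, 3 and 16 in Malt1_WT, and 10 and 6 in Vector. The Vector pair differed more than the other pairs: over 9573 genes, replicate 2 minus replicate 1 varied with an SD of 0.138 in Malt1_PD, 0.183 in Malt1_WT and 0.295 in Vector (log2 CPM), and in Malt1_WT and Vector the difference followed gene length.

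IGF-I and IGF-II signal through the receptor tyrosine kinase IGF1R and, with insulin, through INSR, and both receptors pass the signal through IRS adaptors to PI3-kinase and AKT. Secreted IGF-binding proteins hold the ligands outside the cell and can block or prolong their action, and proteases that cut the binding proteins release them. In the mammary gland IGFBP5 is known for its strong rise during involution, when it is thought to keep IGF from epithelial cells that then die.

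The DNA just before the transcription start is shown for Igfbp5 and Irs2, because these were the members whose libraries separated the Malt1 populations from Vector. Each sequence is the 250 bases before the RefSeq gene start (RefSeq, build GRCm38.p6), 5′ to 3′ on the strand of the gene. Igfbp5 lies at chr1:72874866-72875115 on the minus strand and Irs2 at chr8:11008930-11009179 on the minus strand. Capitals mark matches to the motifs searched, on either strand.
Igfbp5 promoter: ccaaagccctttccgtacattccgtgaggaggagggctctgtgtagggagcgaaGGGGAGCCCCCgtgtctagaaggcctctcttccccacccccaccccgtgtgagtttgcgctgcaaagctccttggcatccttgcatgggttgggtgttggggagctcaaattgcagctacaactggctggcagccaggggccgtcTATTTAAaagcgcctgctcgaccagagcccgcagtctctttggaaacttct
Irs2 promoter: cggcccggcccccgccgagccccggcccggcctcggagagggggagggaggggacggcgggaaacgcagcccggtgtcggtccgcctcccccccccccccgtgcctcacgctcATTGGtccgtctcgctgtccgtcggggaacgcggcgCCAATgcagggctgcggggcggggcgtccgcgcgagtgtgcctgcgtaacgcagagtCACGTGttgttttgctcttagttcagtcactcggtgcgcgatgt
The Igfbp5 window held a TATA-like run, TATTTAA, at 51 to 45 bases before the start, a word found in 4.18% of 32851 promoter windows of the same length. It also held a run of bases at 196 to 186 before the start in which 2 overlapping matches to the NF-kB consensus lay, and 7.25% of the windows held such a match. The Irs2 window held CCAAT, which occurred in 33.8% of windows, at 137 to 133 and at 101 to 97 bases before the start, and the E-box CACGTG, which occurred in 6.02%, at 44 to 39. Neither window held TATAAA (12.4% of windows), the FOXO word GTAAACA (3.17%), the STAT word TTCNNNGAA (7.02%) or the AP-1 word TGANTCA (6.75%). Of the other 5 members with a window, Igfbp4 held TATAAA at 28 to 23 bases before its start and Igfbp6 at 148 to 143. The NF-kB consensus also matched in the window of Irs1, at 160 to 151. The E-box also lay in Igf2r, at 48 to 43 and at 7 to 2, and in Irs1, at 115 to 110. Igfbp6 held CCAAT as well, at 107 to 103 and at 50 to 46. GC content was 58.8% for Igfbp5 and 72.8% for Irs2, against a median of 52.4% over all windows. A match is a run of letters and not a measured site. The GENCODE start of Igfbp5 lies 19 bases upstream of the RefSeq start and so inside the window, and that of Irs2 lies 471 bases downstream.

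Of the ligand genes looked for, only Igf1 had a row, and it was at the edge of detection. Igf1 had 2 counts over the 6 libraries, with at most 1 in a library, below the floor. Igf2, Ins1 and Ins2 matched no row and were not analysed here. Counts above the floor were thus on the binding, receiving and relaying side of the axis, and nothing is known of the ligands without a row.

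Igfbp5 (ENSMUSG00000026185.8, chr1 from 72857932 to 72874884 on the minus strand, GRCm38, 6006 nt of exons) encodes a binding protein that also attaches to extracellular matrix. It had 488 and 515 counts in Malt1_PD, 357 and 661 counts in Malt1_WT, and 204 and 275 counts in Vector. Scaled to library size this was 30.9 and 30.6 CPM in Malt1_PD, 25.4 and 33.0 CPM in Malt1_WT, against 11.5 and 15.4 CPM in Vector. All 4 libraries of the Malt1 populations lay above both Vector libraries, and the Malt1_PD pair lay within the range of the Malt1_WT pair. Means were 30.7 ± 0.189 CPM in Malt1_PD, 29.2 ± 5.34 CPM in Malt1_WT and 13.4 ± 2.77 CPM in Vector (SD, n = 2 each).

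The log2 fold change of Igfbp5 was 1.19 ± 0.17 in Malt1_PD against Vector (SE), a 2.29-fold higher level. In Malt1_WT against Vector it was 1.12 ± 0.17, a 2.18-fold higher level. The 2 Malt1 populations differed from each other by 0.07 ± 0.16 in log2 units, Malt1_PD minus Malt1_WT. These comparisons share libraries: both Malt1 populations were set against the same Vector pair. Of the 14675 genes tested, 100 (0.681%) had a higher log2 fold change than Igfbp5 in Malt1_PD against Vector, and 122 (0.831%) in Malt1_WT against Vector. Igfbp5 was thus placed near the top of the table in both comparisons, and it was chosen with that known.

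Replicates were farthest apart in Vector. They differed there by 0.42 log2 CPM for Igfbp5, replicate 2 minus replicate 1, and the Malt1_WT replicates by 0.37, while those of Malt1_PD differed by -0.01. The trend of that difference at a gene of this length was 0.09 in Vector and 0.05 in Malt1_WT, so the gap between replicates of Igfbp5 was wider than the trend for its length. With the length trend taken out of each library, the log2 fold change was 1.20 ± 0.14 in Malt1_PD and 1.13 ± 0.14 in Malt1_WT, each against Vector. Over the 15 alternatives run it lay between 1.00 and 1.43 in Malt1_PD against Vector and between 0.92 and 1.36 in Malt1_WT against Vector, with the highest values in both without Vector replicate 2.

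**Figure D1:**
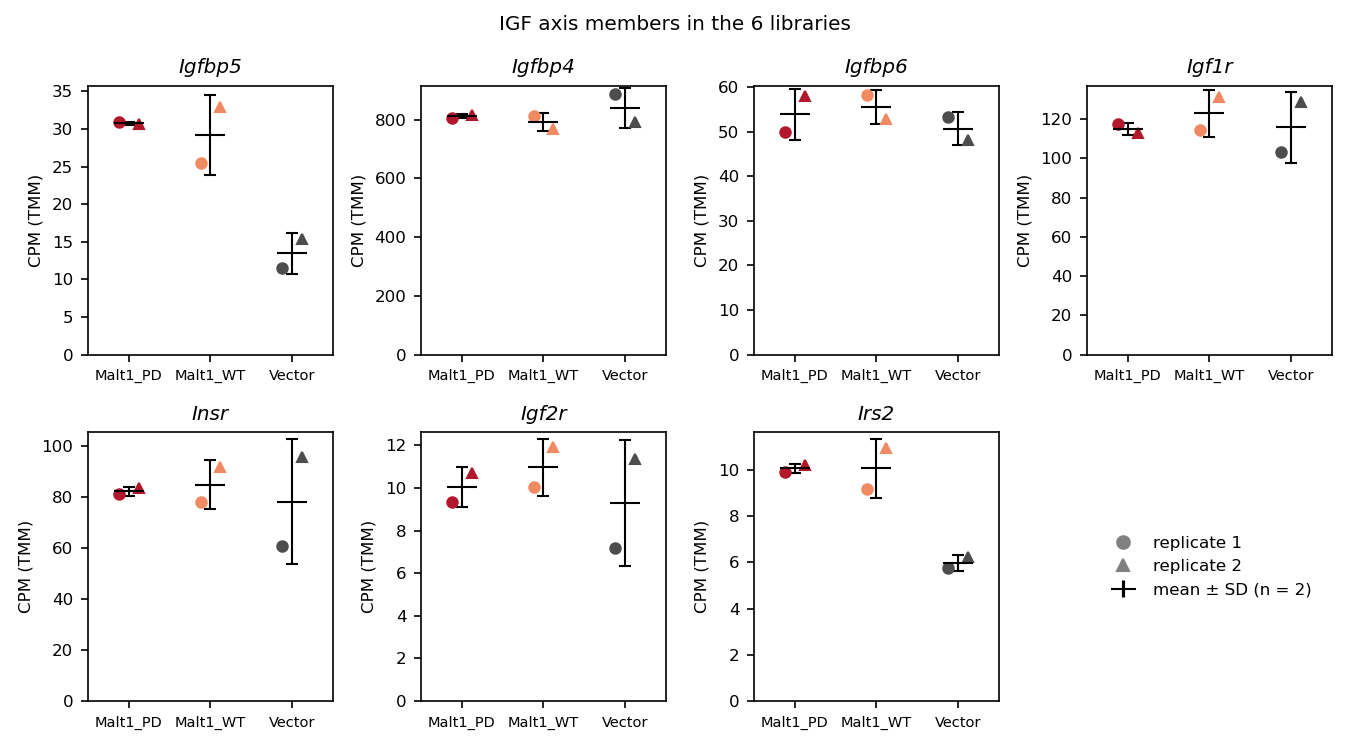
Each panel shows 1 member with its level in CPM per library (circles for replicate 1, triangles for replicate 2, axis from 0) and the group mean ± SD (bars, n = 2), with the groups Malt1_PD, Malt1_WT and Vector from left to right. For Igfbp5 and Irs2 the 4 points of the Malt1 populations lie above both Vector points, as at 25.4 CPM or more against 15.4 CPM or less for Igfbp5, while the points of Igfbp4, Igfbp6, Igf1r, Igf2r and Insr overlap between groups.

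Igfbp4 (ENSMUSG00000017493.12, chr11 from 99041244 to 99054392 on the plus strand, 4416 nt), which encodes a binding protein known as an inhibitor of IGF action, was the highest member. It stood at 807 and 816 CPM in Malt1_PD, 814 and 770 CPM in Malt1_WT, against 888 and 793 CPM in Vector. The 3 groups overlapped. Log2 fold changes were -0.05 ± 0.08 in Malt1_PD and -0.09 ± 0.08 in Malt1_WT, each against Vector (SE).

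Igfbp6 (ENSMUSG00000023046.6, chr15 from 102144362 to 102149511 on the plus strand, 1112 nt) encodes a binding protein that prefers IGF-II. It stood at 49.9 and 57.9 CPM in Malt1_PD, 58.2 and 52.9 CPM in Malt1_WT, against 53.3 and 48.1 CPM in Vector. These ranges overlapped as well. Log2 fold changes were 0.09 ± 0.11 in Malt1_PD and 0.13 ± 0.11 in Malt1_WT, each against Vector (SE). Igfbp2, which was looked for beside the members, had between 3 and 6 counts in a library and at most 0.338 CPM.

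Set side by side per length of transcript, in RPKM (CPM divided by gene length in kilobases), the binding protein transcripts were mostly Igfbp4. Igfbp4 made up between 76.3% and 80.1% of the summed RPKM of Igfbp2, Igfbp4, Igfbp5 and Igfbp6 in the 6 libraries, and Igfbp6 between 19.1% and 21.7%. Igfbp5 took 2.21% and 2.10% in Malt1_PD, 1.76% and 2.41% in Malt1_WT, and 0.762% and 1.14% in Vector. All 4 shares in the Malt1 populations were above both shares in Vector. The CPM of Igfbp5 were separated in the same way, as were those of 9.74% of all genes, so this is not a second finding. The sum itself was 233 and 242 RPKM in Malt1_PD, 241 and 228 RPKM in Malt1_WT, and 251 and 225 RPKM in Vector, with overlapping groups. Igfbp5 was therefore a small share of the measured binding protein transcripts in every library, also where it was highest.

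Igf1r (ENSMUSG00000005533.10, chr7 from 67952827 to 68233668 on the plus strand, 16791 nt) encodes the signalling IGF receptor. It stood at 117 and 113 CPM in Malt1_PD, 114 and 131 CPM in Malt1_WT, against 103 and 128 CPM in Vector. The Vector libraries enclosed those of Malt1_PD, and all groups overlapped. Relative to Vector, the log2 fold change was -0.01 ± 0.12 in Malt1_PD and 0.09 ± 0.12 in Malt1_WT (SE).

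Insr (ENSMUSG00000005534.10, chr8 from 3122061 to 3279617 on the minus strand, 13746 nt) encodes the insulin receptor. It stood at 81.2 and 83.6 CPM in Malt1_PD, 78.2 and 91.8 CPM in Malt1_WT, against 60.9 and 95.8 CPM in Vector. The lowest and the highest of the 6 values were both in Vector. Its log2 fold change was 0.07 ± 0.19 in Malt1_PD and 0.12 ± 0.19 in Malt1_WT, each against Vector (SE). The direction turned on 1 library: without Vector replicate 1 it was -0.22 in Malt1_PD and -0.17 in Malt1_WT, and without Vector replicate 2 it was 0.44 in Malt1_PD and 0.49 in Malt1_WT. With the length trend removed it was 0.02 ± 0.09 in Malt1_PD and 0.10 ± 0.09 in Malt1_WT.

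Igf2r (ENSMUSG00000023830.14, chr17 from 12682406 to 12769664 on the minus strand, 9308 nt) encodes the cation-independent mannose 6-phosphate receptor, which carries IGF-II to lysosomes and sorts lysosomal enzymes. It stood at 9.36 and 10.7 CPM in Malt1_PD, 10.04 and 11.9 CPM in Malt1_WT, against 7.21 and 11.4 CPM in Vector. The groups overlapped. Relative to Vector it differed by 0.11 ± 0.23 log2 units in Malt1_PD and by 0.25 ± 0.22 in Malt1_WT (SE). Its direction too turned on 1 library: without Vector replicate 2 the difference was 0.48 in Malt1_PD and 0.62 in Malt1_WT, and without Vector replicate 1 it was -0.18 in Malt1_PD and -0.04 in Malt1_WT.

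Per length, Igf1r was somewhat above Insr in every library. The ratio of Igf1r to Insr in RPKM was 1.18 and 1.11 in Malt1_PD, 1.20 and 1.17 in Malt1_WT, and 1.39 and 1.10 in Vector. The Vector pair again held both ends of the range.

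Irs2 (ENSMUSG00000038894.7, chr8 from 10984681 to 11008458 on the minus strand, 6323 nt) encodes an adaptor that both receptors phosphorylate and that recruits PI3-kinase. It had 157 and 172 counts in Malt1_PD, 129 and 220 counts in Malt1_WT, and 102 and 111 counts in Vector. In CPM this was 9.93 and 10.2 in Malt1_PD, 9.18 and 11.0 in Malt1_WT, and 5.74 and 6.22 in Vector. As for Igfbp5, all 4 libraries of the Malt1 populations lay above both Vector libraries, and the 2 Malt1 populations overlapped. Means were 10.1 ± 0.205 CPM in Malt1_PD, 10.1 ± 1.26 CPM in Malt1_WT and 5.98 ± 0.337 CPM in Vector (SD, n = 2 each).

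The log2 fold change of Irs2 was 0.75 ± 0.16 in Malt1_PD against Vector (SE), a 1.68-fold higher level. In Malt1_WT against Vector it was 0.76 ± 0.16, a 1.69-fold higher level, and between Malt1_PD and Malt1_WT it was -0.01 ± 0.16. In Malt1_PD against Vector 421 genes (2.87%) had a higher log2 fold change than Irs2, and in Malt1_WT against Vector 331 genes (2.26%) did. With the length trend removed it was 0.75 ± 0.15 in Malt1_PD and 0.76 ± 0.15 in Malt1_WT. The Vector replicates of Irs2 differed by 0.11 log2 CPM, which is the trend for its length, and the Malt1_WT replicates by 0.25, where the trend was 0.05. Exons of Irs2 share 162 bases, 2.56% of its exonic length, with 9530052E02Rik on the other strand, and the strand setting of the counting is not given in the sources used here.

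Irs1 (ENSMUSG00000055980.2, chr1 from 82233101 to 82291416 on the minus strand, 9144 nt), the adaptor gene most often studied beside Irs2, was at or below the floor. It had 0 and 0 counts in Malt1_PD, 0 and 3 counts in Malt1_WT, and 0 and 0 counts in Vector, and did not pass the filter. Irs3, an adaptor gene of rodents, was counted in all libraries, at 3.54 and 3.80 CPM in Malt1_PD, 2.21 and 2.69 CPM in Malt1_WT, against 2.702 and 2.857 CPM in Vector. Per length, Irs2 made up 50.9% and 49.8% of the summed RPKM of Irs1, Irs2 and Irs3 in Malt1_PD, 60.6% and 59.8% in Malt1_WT, and 44.0% and 44.6% in Vector. The shares did not overlap between any of the groups, with Malt1_WT the highest and Vector the lowest. Such shares were not computed for other genes. Irs2 itself overlapped between the 2 Malt1 populations, while Irs3 lay wholly higher in Malt1_PD than in Malt1_WT, as did 16% of all genes. Against Vector, Irs2 lay wholly higher in Malt1_PD, as did 18.4% of all genes, and in Malt1_WT, as did 15.5%. Nearly all the rest was Irs3, at 49.1% and 50.2% in Malt1_PD, 39.4% and 39.7% in Malt1_WT, and 56.0% and 55.4% in Vector.

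**Figure D2:**
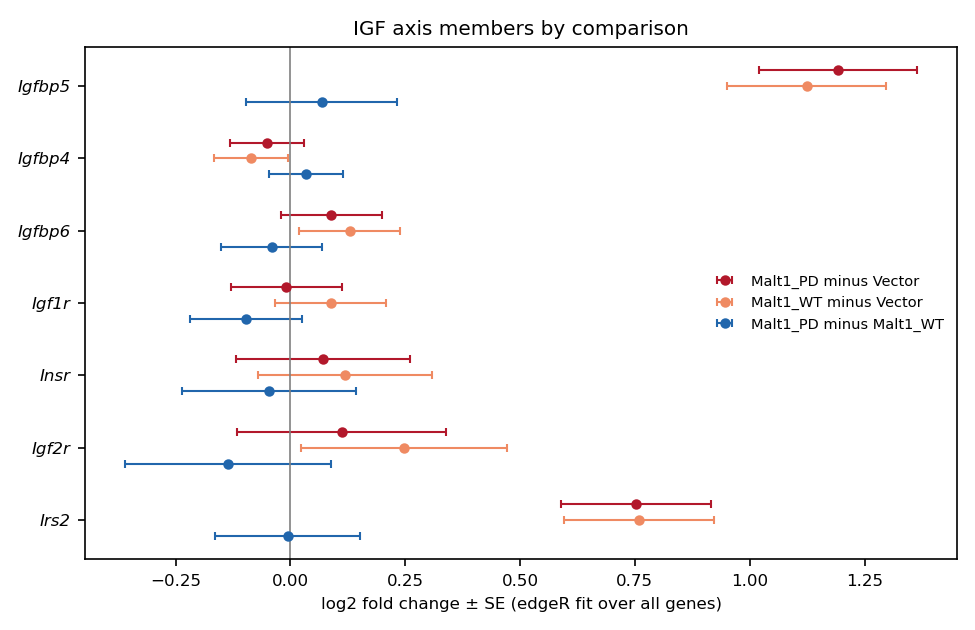
Log2 fold changes of the 7 members that passed the filter (points, with SE as bars) are drawn for Malt1_PD against Vector, Malt1_WT against Vector and Malt1_PD against Malt1_WT, with 0 as a line. Igfbp5 at 1.19 and 1.12 and Irs2 at 0.75 and 0.76 lie to the right of 0 in the first 2 comparisons, and every point of the comparison between the Malt1 forms lies between -0.14 and 0.07.

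The order of the members by RPKM, averaged over all libraries, was Igfbp4 (184), Igfbp6 (48.0), Igf1r (7.02), Insr (5.96), Igfbp5 (4.07), Irs2 (1.38), Igf2r (1.08) and Irs1 (0.0027). Places 1 to 5 were the same in every library, so Igfbp5 stayed below Insr also in the Malt1 populations. Irs2 lay above Igf2r in every library but Vector replicate 2, where they stood at 0.983 and 1.22 RPKM. Igfbp5 averaged 5.12 ± 0.0315 RPKM in Malt1_PD, 4.86 ± 0.889 RPKM in Malt1_WT and 2.24 ± 0.462 RPKM in Vector (SD, n = 2 each). Among all genes tested its mean RPKM lay at percentile 42.0, that of Igfbp4 at 98.6, that of Igf1r at 54.8 and that of Irs2 at 23.7.

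Counted against the whole table, the members gave the following. In Malt1_PD against Vector, edgeR's quasi-likelihood test (Benjamini-Hochberg adjusted) called 0 of the 7 members at an adjusted p under 0.05 and 0.00681% of all genes, namely Malt1. At an unadjusted p under 0.05, 2 members were higher and 0 lower, against 3.73% of all genes higher and 4.88% lower. DESeq2 called 1 member, Igfbp5, and 0.293% of all genes, and limma-voom called 0 members and 0.00681% of all genes. Igfbp5 and Irs2 were the 2 members whose libraries lay wholly above those of Vector, as did 18.4% of all genes, and 0 members lay wholly below, as did 19.7%. The median log2 fold change over the 7 members was 0.09, against 0.00 over all genes. The members were chosen from this contrast, so nothing is read from these counts.

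In Malt1_WT against Vector the same test called 0 of 7 members and 0.00681% of all genes, namely Cd274, which encodes PD-L1. At an unadjusted p under 0.05, 2 members were higher and 0 lower, against 3.3% and 3.8% of all genes. DESeq2 called 1 member, Igfbp5, and 0.211% of all genes, and limma-voom called 0 members and 0.00681%. Igfbp5 and Irs2 again lay wholly above Vector, as did 15.5% of all genes, and 0 members lay wholly below it, as did 17.1%. The median over the members was 0.13.

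Between Malt1_PD and Malt1_WT the same test called 0 of 7 members and 0.00681% of all genes, again Cd274, lower in Malt1_PD. At an unadjusted p under 0.05, 0 members were higher, against 1.08% of all genes, and 0 lower, against 0.838%, and DESeq2 and limma-voom each called 0 members and 0.00681% of all genes. No member lay wholly to one side, against 16% of all genes wholly higher and 16.1% wholly lower. The median over the members was -0.04.

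With both Malt1 populations averaged and set against Vector, the log2 fold change was 1.16 ± 0.15 for Igfbp5 (SE), a 2.23-fold higher level, and 0.76 ± 0.14 for Irs2, a 1.69-fold higher level. In this contrast edgeR's quasi-likelihood test called 0 of 7 members and 0.0273% of all genes, which were Cd274, Malt1, Mmp3 and Ptgs1. At an unadjusted p under 0.05, 2 members were higher, against 4.45% of all genes, and 0 lower, against 5.4%. DESeq2 called Igfbp5 and 0.545% of all genes, and limma-voom called 0 members and 0.0273%. Igfbp5 and Irs2 had all 4 Malt1 libraries above both Vector libraries, as did 9.74% of all genes, and 0 members had all 4 below, as did 10.8%.

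Among markers of basal and myoepithelial cells, Acta2 and Krt14 were higher and Trp63 lower in the Malt1 populations than in Vector. Summed over the 3 of 4 such markers with a row, they came to 54.5 and 56.5 CPM in Malt1_PD, 60.4 and 52.2 CPM in Malt1_WT, against 39.5 and 37.8 CPM in Vector. Most of the sum was Acta2, which encodes smooth muscle actin, at 51.1 and 52.2 CPM in Malt1_PD, 56.2 and 48.0 CPM in Malt1_WT, against 35.2 and 32.2 CPM in Vector. Krt14 stood at 0.506 and 1.25 CPM in Malt1_PD, 0.712 and 1.15 CPM in Malt1_WT, against 0.338 and 0.056 CPM in Vector. Its lowest value was below the floor. Trp63, which encodes a transcription factor of basal cells, stood at 2.91 and 3.09 CPM in Malt1_PD, 3.56 and 3.09 CPM in Malt1_WT, against 3.88 and 5.60 CPM in Vector. Both Vector values of Trp63 lay above all 4 values of the Malt1 populations. Of all genes, 10.8% had all 4 Malt1 libraries below both Vector libraries and 9.74% had them above. The part of these cells in the levels of Igfbp5 and Irs2 was not tested. Summed fibroblast markers, 5 of 6 with a row, overlapped at 702 and 702 CPM in Malt1_PD, 696 and 746 CPM in Malt1_WT, against 663 and 721 CPM in Vector, and summed endothelial markers, 4 of 4 with a row, lay between 4.34 and 7.40 CPM. Most of the fibroblast sum was Col3a1, Pdgfra and Pdgfrb. Dcn lay the other way from Igfbp5 and Irs2, at 6.90 and 6.66 CPM in Malt1_PD, 6.05 and 6.13 CPM in Malt1_WT, against 9.85 and 12.5 CPM in Vector, with all 4 Malt1 libraries below both Vector libraries, and the part of fibroblast-like transcripts in those levels was not tested either.

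**Figure D3:**
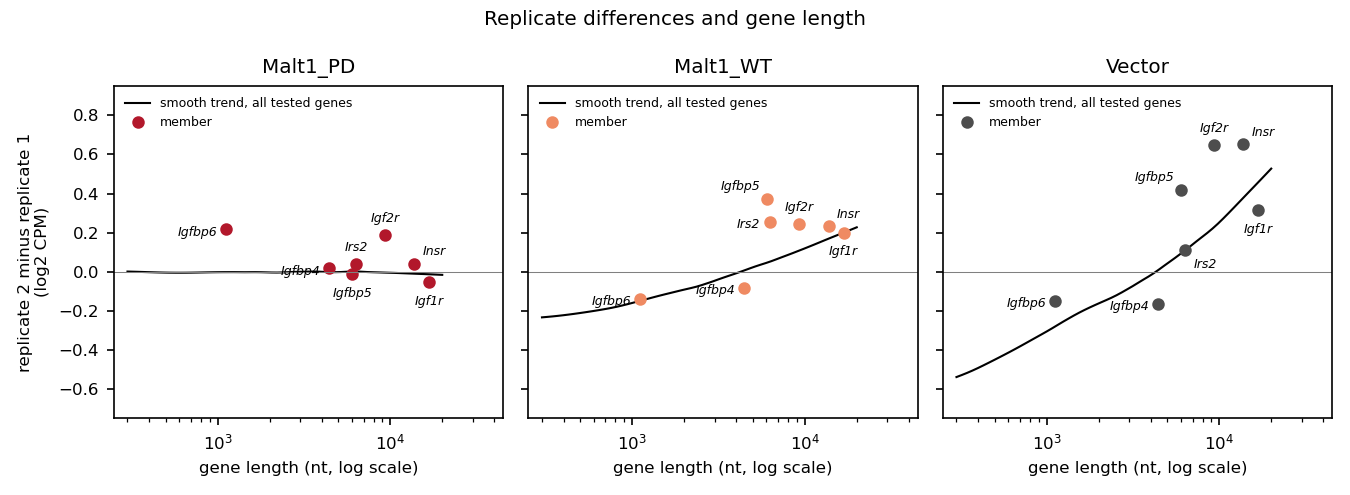
Each panel plots replicate 2 minus replicate 1 in log2 CPM against gene length (log axis) for the members (points) and as a smooth trend over all genes tested (line), with Malt1_PD, Malt1_WT and Vector from left to right. The line is flat in Malt1_PD and rises with length in Malt1_WT and Vector, and in Vector the points of Igfbp5 at 0.42, Insr at 0.65 and Igf2r at 0.65 lie above it.

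Which library of a pair departed cannot be read from their difference. Within Vector and within Malt1_WT, replicate 1 read long transcripts less than replicate 2. Among the members this showed in the Vector pair for Insr, with a difference of 0.65 log2 CPM where the trend for its length was 0.38, and for Igf1r, with 0.32 where the trend was 0.46. For Igf2r the difference was 0.65 and the trend 0.23. The shorter Igfbp6 went the other way, with -0.15 where the trend was -0.28. Igfbp4 did not follow the trend, with -0.16 where the trend was 0.01.

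Genes whose pattern over the 6 libraries was nearest to that of Igfbp5 were sought among 10643 tested genes, by the root mean square (RMS) difference in log2 CPM after each gene was centred on its own mean. The nearest were Tlr5, which encodes the receptor for bacterial flagellin, at an RMS difference of 0.16, and Fgd3 at 0.19. Next came Faxc at 0.19, Prdm11 at 0.20 and Orm1, which encodes an acute-phase plasma protein, at 0.20. These are log2 differences over 6 libraries that share the same Vector pair, and they carry no test.

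Tlr5 stood at 8.92 and 7.07 CPM in Malt1_PD, 7.26 and 8.48 CPM in Malt1_WT, against 3.66 and 4.76 CPM in Vector. Orm1 stood at 6.52 and 5.47 CPM in Malt1_PD, 4.84 and 4.89 CPM in Malt1_WT, against 2.20 and 2.18 CPM in Vector. Like Igfbp5, both had lower Vector values than any value of the Malt1 populations, as did 9.74% of all genes. Both were chosen for their likeness to Igfbp5 over these same libraries, so this is no separate result. Against Vector the log2 fold changes in Malt1_PD were 0.92 for Tlr5, 1.09 for Fgd3, 0.85 for Faxc, 1.12 for Prdm11 and 1.45 for Orm1. In Malt1_WT they were 0.91 for Tlr5, 0.88 for Fgd3, 0.73 for Faxc, 0.81 for Prdm11 and 1.15 for Orm1. Among the members Irs2 was nearest to Igfbp5, at an RMS difference of 0.22, with 22 of the genes tested nearer, while the other 5 lay at 0.47 or more.

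**Figure D4:**
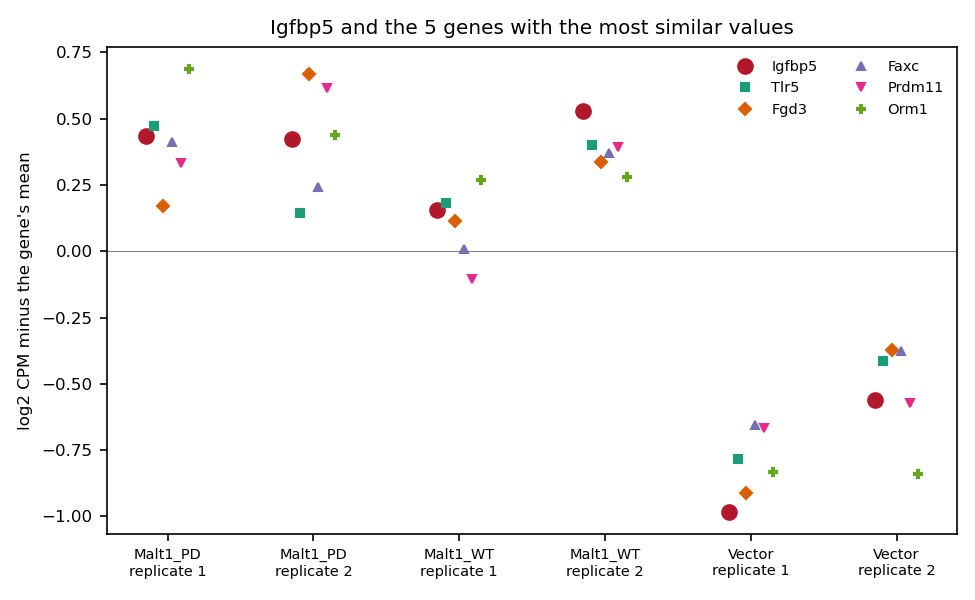
Points show log2 CPM centred on each gene's own mean for Igfbp5 and the 5 genes with the smallest RMS difference from it, over the libraries of Malt1_PD, Malt1_WT and Vector from left to right. All 6 genes are below their mean in both Vector libraries, where Igfbp5 is at -0.98 and -0.56, and the 5 genes lie at RMS differences of 0.16 to 0.20 from Igfbp5.

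Of the other genes of the axis, 24 were looked for beside the members, 16 had a row and 12 passed the filter. They take in ligands, other binding proteins, proteases and their inhibitors, a related receptor, adaptors and proteins that bind Igf2 mRNA. In Malt1_PD against Vector 0 of 12 rose and 0 fell by edgeR's quasi-likelihood test (Benjamini-Hochberg adjusted), and the median log2 fold change was 0.18. Unadjusted p-values under 0.05 were found for 2 higher and 2 lower genes, against 3.73% of all genes higher and 4.88% lower. DESeq2 called 1 of the 12, Grb14, as lower, and 0.293% of all genes, and limma-voom called 0 of the 12. In Malt1_WT against Vector 0 of 12 passed the same test by edgeR, DESeq2 and limma-voom, with 1 higher and 0 lower by unadjusted p under 0.05 and a median of 0.02. Between Malt1_PD and Malt1_WT 0 of 12 passed by the 3 tools, with 1 higher and 1 lower by unadjusted p under 0.05 and a median of -0.02. The shares of all genes by that p were 3.3% higher and 3.8% lower in Malt1_WT against Vector. They were 1.08% and 0.838% between Malt1_PD and Malt1_WT. With both forms averaged against Vector 0 of 12 passed by the 3 tools. By unadjusted p under 0.05, 4 were higher and 1 lower there, against 4.45% and 5.4% of all genes.

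Grb14 encodes an adaptor that binds the active insulin receptor and restrains its kinase. It stood at 14.1 and 12.5 CPM in Malt1_PD, 17.8 and 18.9 CPM in Malt1_WT, against 20.3 and 25.5 CPM in Vector. The 3 groups did not overlap, with Malt1_PD the lowest and Vector the highest. Of all genes, 19.7% lay wholly lower in Malt1_PD against Vector and 17.1% in Malt1_WT against Vector. In Malt1_PD against Malt1_WT 16.1% did. In Malt1_PD against Vector the log2 fold change was -0.78 ± 0.15 (SE), with an adjusted p of 0.190 by edgeR's quasi-likelihood test, while DESeq2 called it lower. In Malt1_WT against Vector it was -0.32 ± 0.14 with an adjusted p of 0.712 by edgeR, and in Malt1_PD against Malt1_WT it was -0.46 ± 0.15 with an adjusted p of 1.00 by edgeR.

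Stc1 encodes stanniocalcin 1, an inhibitor of the protease that cuts IGFBP4. It stood at 15.4 and 14.2 CPM in Malt1_PD, 17.5 and 16.2 CPM in Malt1_WT, against 12.7 and 10.6 CPM in Vector. Both Malt1 populations lay above Vector, as did 9.74% of all genes. The log2 fold change against Vector was 0.34 ± 0.14 in Malt1_PD (adjusted p 0.575 by edgeR) and 0.52 ± 0.14 in Malt1_WT (adjusted p 0.449 by edgeR).

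Insrr encodes the insulin receptor-related receptor, which responds to alkaline pH. It stood at 5.50 and 8.38 CPM in Malt1_PD, 6.83 and 5.49 CPM in Malt1_WT, against 3.43 and 4.54 CPM in Vector. Here too both Malt1 populations lay above Vector, as did 9.74% of all genes. The log2 fold change against Vector was 0.80 ± 0.27 in Malt1_PD (adjusted p 0.478 by edgeR) and 0.62 ± 0.27 in Malt1_WT (adjusted p 0.700 by edgeR). Irs3 differed by 0.57 ± 0.24 in log2 units between Malt1_PD and Malt1_WT (adjusted p 1.00 by edgeR). Igf2bp2, whose protein binds Igf2 mRNA, averaged 117 CPM in Malt1_PD and 137 CPM in Vector (log2 fold change -0.22 ± 0.10, adjusted p 0.576 by edgeR). In Malt1_WT it averaged 130 CPM (-0.08 ± 0.10 against Vector, adjusted p 0.921 by edgeR). Igf2bp1 averaged 0.965 CPM in Malt1_WT and 0.337 CPM in Vector (log2 fold change 1.45 ± 0.63, adjusted p 0.700 by edgeR). In Malt1_PD it averaged 0.868 CPM (1.34 ± 0.64 against Vector, adjusted p 0.614 by edgeR). Igf2bp1 had few counts, 19 and 9 in Malt1_PD, 18 and 13 in Malt1_WT, and 7 and 5 in Vector. Among genes around the binding proteins themselves, Htra1, which encodes a protease that cuts IGFBP5, stood at 58.5 and 63.1 CPM in Malt1_PD, 54.8 and 60.7 CPM in Malt1_WT, against 59.8 and 52.9 CPM in Vector. Pappa2, which encodes another protease that cuts IGFBP5, stood at 6.07 and 7.90 CPM in Malt1_PD, 5.62 and 6.88 CPM in Malt1_WT, against 5.12 and 6.67 CPM in Vector. Both proteases overlapped between the groups.

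Downstream of the adaptors, 21 of 22 genes of the PI3-kinase, AKT, mTOR and FOXO branch passed the filter, and Foxo1, with 1 count over all libraries, did not. In Malt1_PD against Vector 0 of 21 passed by edgeR, DESeq2 and limma-voom, with 1 higher and 0 lower by unadjusted p under 0.05 by edgeR and a median log2 fold change of 0.09. For Malt1_WT against Vector, 0 of 21 passed by the 3 tools, with 1 higher and 0 lower by unadjusted p under 0.05 and a median of 0.07. Between Malt1_PD and Malt1_WT 0 of 21 passed by the 3 tools, 0 had an unadjusted p under 0.05 and the median was 0.01. By that p, 1.08% of all genes were higher and 0.838% lower in Malt1_PD than in Malt1_WT. The shares of all genes by that p were 3.73% higher and 4.88% lower in Malt1_PD against Vector. They were 3.3% and 3.8% in Malt1_WT against Vector. With both forms averaged against Vector 0 of 21 passed by the 3 tools. By unadjusted p under 0.05, 2 were higher and 0 lower there, against 4.45% and 5.4% of all genes. Akt1, which encodes a kinase activated through PI3-kinase, averaged 341 CPM in Malt1_PD and 300.2 CPM in Vector (log2 fold change 0.18 ± 0.07, adjusted p 0.548 by edgeR), and averaged 332 CPM in Malt1_WT, a log2 fold change against Vector of 0.15 ± 0.07 (adjusted p 0.733 by edgeR). Pik3r3, which encodes a regulatory subunit of PI3-kinase, averaged 5.78 CPM in Malt1_PD and 4.21 CPM in Vector (log2 fold change 0.46 ± 0.23, adjusted p 0.624 by edgeR), and averaged 6.28 CPM in Malt1_WT, a log2 fold change against Vector of 0.59 ± 0.22 (adjusted p 0.655 by edgeR).

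Beside Igf2r, 10 genes of mannose 6-phosphate sorting and of lysosomal enzymes were looked for and all 10 passed the filter. In Malt1_PD against Vector 0 of 10 passed by edgeR, DESeq2 and limma-voom, with 0 higher and 1 lower by unadjusted p under 0.05 by edgeR and a median log2 fold change of -0.03. For Malt1_WT against Vector, 0 of 10 passed by the 3 tools, with 1 higher and 2 lower by unadjusted p under 0.05 and a median of 0.07. Between Malt1_PD and Malt1_WT 0 of 10 passed by the 3 tools, 0 had an unadjusted p under 0.05 and the median was -0.06. By that p, 1.08% of all genes were higher and 0.838% lower in Malt1_PD than in Malt1_WT. The shares of all genes by that p were 3.73% higher and 4.88% lower in Malt1_PD against Vector. They were 3.3% and 3.8% in Malt1_WT against Vector. With both forms averaged against Vector 0 of 10 passed by the 3 tools. By unadjusted p under 0.05, 1 was higher and 2 lower there, against 4.45% and 5.4% of all genes. Ctsl, which encodes the lysosomal protease cathepsin L, averaged 465 CPM in Malt1_PD and 573 CPM in Vector (log2 fold change -0.30 ± 0.10, adjusted p 0.506 by edgeR), and averaged 472 CPM in Malt1_WT, a log2 fold change against Vector of -0.28 ± 0.10 (adjusted p 0.633 by edgeR). M6pr, which encodes the smaller mannose 6-phosphate receptor, stood at 307 and 297 CPM in Malt1_PD, 324 and 287 CPM in Malt1_WT, against 325 and 305 CPM in Vector, with overlapping groups.

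**Figure D5:**
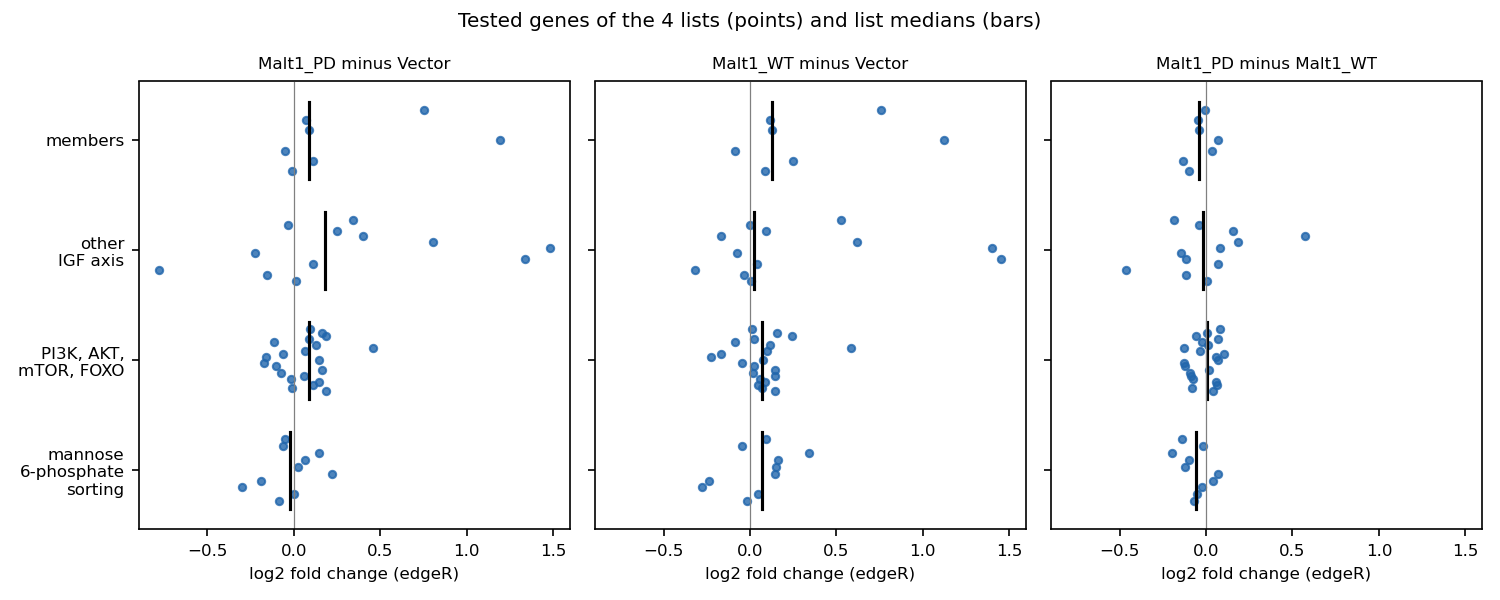
Each point is 1 gene that passed the filter, placed by its log2 fold change in Malt1_PD against Vector, Malt1_WT against Vector or Malt1_PD against Malt1_WT and grouped by list, with the list's median as a bar. The medians of the 3 lists beside the members lie between -0.06 and 0.18, and Igfbp5 at 1.19 and 1.12 is the highest point among the members.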

How the data were processed

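RNA of 6 E0771 libraries in 3 groups, placed by their labels, was analysed from whole-number counts per gene that the authors deposited. Trim Galore 0.6.0, STAR 2.7.3a, featureCounts 1.6.3 and build GRCm38.p6 are listed in the submitters' processing notes, and libraries were directional with paired 150 base reads, per the labels' protocols. For the counting, strand setting and annotation version are not given in the sources used, which leaves genes overlapping on opposite strands less certain. The table's 6 log2 RPKM columns were not used. Gene lengths (other values per gene) are those the authors deposited, and RPKM were computed from the counts with them.

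Genes were kept by filterByExpr (14675 of 28063) and fitted with edgeR 4.0.16 (TMM factors, glmQLFit, glmQLFTest) in R 4.3.3, with a mean per group and no covariate. Benjamini-Hochberg adjustment ran over all 14675 genes, with calls at an adjusted p under 0.05. The common coefficient of variation was 10.1%, on 3 residual degrees of freedom, and each SE is the log2 fold change over the root of its F. Log2 CPM carry a prior count of 2. DESeq2 1.42.0 and limma-voom (limma 3.58.1) were alternatives, with DESeq2 size factors, no filter, a fit limited to the compared groups, a block on replicate number, removal of a smooth trend (lowess, span 0.3) on gene length, and omitted libraries. The fit was also run on simulated data, drawn with the common dispersion for every gene and no length trend. That run does not cover the wider, length-related spread of the Vector pair.

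Identifiers were matched to GENCODE M21 (28056 matched), and promoter windows are RefSeq's, with 7 members matched. Motifs were chosen with these sequences and earlier results known. Members and lists were likewise chosen with earlier results of these data known. Members are named in every comparison. Of the other lists, called genes and otherwise up to 4 genes with the smallest p could be named, and not all of these are reported here. Genes named beside them, namely Htra1, Pappa2 and M6pr, were chosen after their values were seen. The 5 genes most like Igfbp5 are those with the smallest RMS difference among genes of mean log2 CPM of at least 1 with no predicted symbol.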

Additional observations from a re-analysis of the deposited data

How the results depend on the processing

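The log2 fold change of Igfbp5 kept its sign against Vector under all alternatives run. Without 1 library it lay between 1.00 and 1.43 in Malt1_PD, between 0.92 and 1.36 in Malt1_WT and between 0.96 and 1.39 in the mean of both forms, highest without Vector replicate 2 in each, and between -0.10 and 0.27 for Malt1_PD minus Malt1_WT. Over all alternatives that of Irs2 lay between 0.70 and 0.82 in Malt1_PD and between 0.62 and 0.88 in Malt1_WT. Those of Igf1r, Igf2r and Insr against Vector changed sign between alternatives, as did those of Igfbp4 and Igfbp6 in Malt1_PD against Vector. Counts of called genes moved far more, and the cause was not tested.

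Counts below are given for Malt1_PD against Vector, Malt1_WT against Vector and the mean of both forms against Vector, in that order. All genes called numbered 1, 1 and 4 by the fit reported. They numbered 188, 113 and 255 with no filter, 43, 31 and 80 by DESeq2, 87, 55 and 205 with the length trend removed, and 2080, 936 and 1754 with both Vector replicate 1 and Malt1_WT replicate 1 omitted, where 1 pair alone gives the spread and the lone libraries are assumed to vary like it. Replicate differences correlated across genes at 0.68 between Malt1_WT and Vector, at -0.01 between Malt1_PD and Vector and at 0.03 between Malt1_PD and Malt1_WT. A block on replicate number has little ground here, since these values do not settle whether the numbers pair the samples. With that replicate block, genes called numbered 9, 6 and 52, and with the replicate block and the length trend removed 228, 163 and 376. Without 1 library they ran from 0 to 928, from 1 to 599 and from 1 to 1202, with the highest counts without Vector replicate 2, 111, 50 and 201 without Vector replicate 1, and 0, 1 and 1 without either Malt1_PD library. For Malt1_PD against Malt1_WT, 1 gene was called by the fit reported, 12 with no filter and 358 with both libraries omitted.

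The members were chosen from these same values, so their calls are not read as support. All genes called under the same settings are given above, as numbers or as shares. Members called numbered 0 in each comparison by the fit reported and by limma-voom. They were also 0 with DESeq2 size factors and, where it was run, in a fit limited to the groups compared. They numbered 2, 2 and 2 with no filter, 1, 1 and 1 by DESeq2, 1, 1 and 1 with the replicate block, 1, 1 and 2 with the length trend removed, 2, 2 and 2 with both block and trend, and 4, 2 and 2 with both libraries omitted. Where members were called in these comparisons with Vector, Igfbp5 was among them, and where 2 were called the other was Irs2. Without 1 library they ran from 0 to 3 in each, with Insr as the third member without Vector replicate 2, higher than Vector. With both libraries omitted Insr and Igf1r were lower in Malt1_PD than in Vector, and Igf1r was the 1 member called in Malt1_PD against Malt1_WT.

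Other IGF axis genes called numbered 1, 0 and 1 with no filter, with the length trend removed and with both block and trend, each time Grb14. They numbered 1, 0 and 0 by DESeq2, and 6, 1 and 4 with both libraries omitted, and ran from 0 to 1, from 0 to 0 and from 0 to 1 without 1 library. PI3-kinase branch genes called numbered 5, 3 and 6 with both libraries omitted and ran from 0 to 4, from 0 to 3 and from 0 to 5 without 1 library. Sorting genes called numbered 2, 3 and 4 with both libraries omitted and ran from 0 to 2, from 0 to 1 and from 0 to 2 without 1 library, and the mean of both forms had 1, Ctsl, with no filter and with both block and trend. In Malt1_PD against Malt1_WT, 2 other IGF axis genes and 1 PI3-kinase branch gene were called with both libraries omitted.

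DESeq2 size factors, limma-voom and a fit of the groups compared moved none of these counts by over 1.5 times, and the last was not run for the mean of both forms. With 2 libraries a group the fit has 3 residual degrees of freedom. Fewer than 3 counts, as for Irs1, Igf1 and Foxo1 in most libraries, show only that a transcript was not detectable at this depth.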
